A study of Solanum lycopersicum with 12 samples.

Results

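A set of 24 probe sets on the tomato genome array had lower log2 values after Alethea on 2 of 3 occasions and about the same value on the other. The set was picked on these measured values. For every probe set and occasion the Alethea change was taken as the mean of AW − WW and AS − WS in log2 units. A member changed by -0.8 or less on occasions 2 and 3, stayed between -0.4 and 0.4 on occasion 1, and had a mean above 3.2 in at least 1 group. Of 10101 probe sets that are not array controls, 7732 passed the last condition and 24 met them all. These 24 stand for 23 transcripts by their identifiers, because LesAffx.59893.1 and LesAffx.59893.2 share a stem. A protein description was used as the name of 17 members and 7 are given by identifier. Among the 7, Les.5617.1 is described as a beta-galactosidase alpha polypeptide by 1 of the study's 2 annotations, while the other found no match.

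The plants were tomato cv. Ailsa Craig, 4 weeks old, grown with 14 h of light at 22 °C and 10 h of dark at 18 °C. They were sprayed with water or with 1 part Alethea in 99 parts water. Alethea is a plant activator made of potassium dihydrojasmonate, sodium benzoate and L-arginine, with zinc, iron, manganese, copper, magnesium and boron as nutrients. Pots were later watered with water or with 100 mM NaCl, and the third leaf was taken 48 h after the spray and 24 h after the watering. This gave the groups WW (water spray, water), WS (water spray, NaCl), AW (Alethea, water) and AS (Alethea, NaCl). Each group had 3 arrays, and each array held RNA from the pooled leaves of 3 plants grown on a separate occasion. The sample titles give replicates 1 to 3, and these numbers were taken as the occasions. All plants were of this cultivar, so no other genotype is represented.

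Plant activators are compounds that prime a plant's own defences, and jasmonates are hormones of wounding and herbivore defence that reprogram transcription in leaves. The members fall into several roles: sterol synthesis, which supplies membrane sterols and brassinosteroid precursors, metal transport, thiol-based redox control, tetrapyrrole synthesis for chlorophyll and haem, protein turnover and signalling. A probe set reports the summed RNA of whole leaves, and in such bulk samples fewer cells of a type and less RNA per cell cannot be told apart.

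The arrays of occasion 1 stood apart from the others. Over the 7732 probe sets the Alethea changes of occasions 2 and 3 correlated across genes with r = 0.60, those of occasions 1 and 2 with r = 0.18 and those of occasions 1 and 3 with r = 0.29. These are correlations across genes, which are not independent replicates. The SD of the change over all probe sets was 0.35, 0.64 and 0.40 on occasions 1, 2 and 3. Leaf markers were high on all 12 arrays, with chlorophyll a/b-binding proteins CAB4, CAB5 and CAB6A at log2 values of 14.5 to 15.3 and the ripening genes E8 and PG2 at 2.3 to 2.6. Psy1, a phytoene synthase of carotenoid synthesis on the same list of fruit and root genes, was not low: over the 12 arrays the medians of its 3 probe sets were 11.4 (Les.3171.3.S1_a_at), 11.1 (Les.44.1.S1_at) and 1.53 (Les.3171.4.A1_at). Les.44.1.S1_at changed with Alethea by 0.23, 1.93 and 0.82 on occasions 1, 2 and 3, and its part in the results below was not tested. Array controls for RNA ends moved with the treatment. For actin, the 3′ minus 5′ difference rose with Alethea in 6 of 6 pairs, by a mean of 0.65 (SD 0.41), and for GAPDH in 6 of 6, by 0.16 (SD 0.09) (exact two-sided sign-flip permutation test, p = 0.03125 for each, the smallest that 6 pairs allow). By occasion the actin shift was 0.64, 0.91 and 0.42. On occasion 1 it was 0.09 without salt and 1.18 with salt, and the members are set beside these values further on. The part of the actin shift in the results was not tested. The mean level of the array's bacterial hybridisation controls changed with Alethea by 0.35, -1.25 and -0.39 on occasions 1, 2 and 3. Without and with salt these changes were 0.30 and 0.40, -1.32 and -1.17, and -0.41 and -0.38. Like the members, these controls were lower after Alethea on occasions 2 and 3 and not on occasion 1. Their part in the results was not tested either.

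The Alethea change of the members had a median of -1.50 on occasion 2, -1.04 on occasion 3 and -0.25 on occasion 1. These values are the ones that chose the members and carry no test. The range was -7.10 to -0.82 on occasion 2, -5.91 to -0.80 on occasion 3 and -0.39 to 0.29 on occasion 1. The fall was larger on occasion 2 than on occasion 3 in 20 of 24. Both pairs, with and without salt, were lower after Alethea on occasions 2 and 3 in 24 of 24. In 20 of 24 members all 4 Alethea arrays of these occasions lay below all 4 water arrays, against 7.99% of all probe sets tested. The 4 with overlap were the pepsin A-like protease, the obtusifoliol 14alpha-demethylase, the protein phosphatase 2C and LesAffx.68307.1. Over all 3 occasions limma called 15 of the 24 lower after Alethea (4.6% of all) and Rank Product 23 of 24 (2.43% of all), counts that the choice of members largely fixes.

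**Figure D1:**
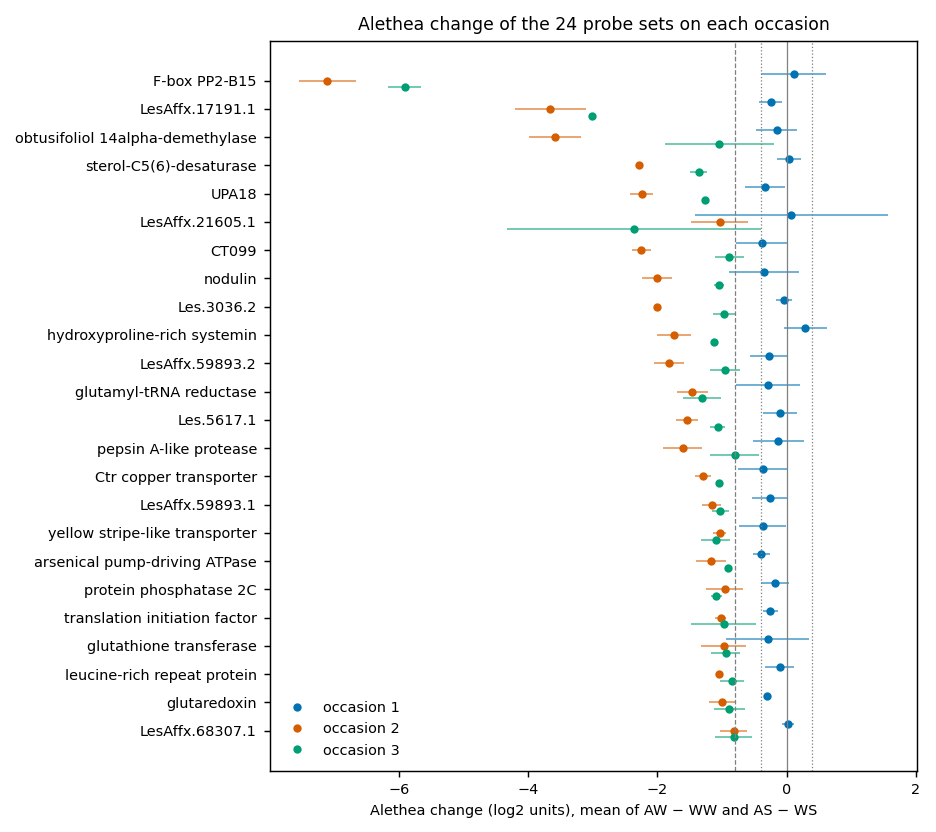
Alethea change in log2 units (x axis) of each of the 24 probe sets (y axis) on occasions 1, 2 and 3, with points for the mean of AW − WW and AS − WS, lines joining the 2 pairs, and vertical lines at -0.8 (dashed) and at -0.4 and 0.4 (dotted). The F-box PP2-B15 transcript lies farthest left, at -7.10 and -5.91, and the smallest mean change is that of LesAffx.68307.1, at -0.82 on both occasions.

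The widest change belonged to an F-box protein annotated as PP2-B15 (LesAffx.294.1.S1_at); F-box proteins select targets for ubiquitination. Its log2 values in WW, WS, AW and AS were 10.20, 9.43, 2.66 and 2.77 on occasion 2 and 8.53, 8.03, 2.37 and 2.38 on occasion 3. On occasion 1 the same groups read 2.68, 2.75, 3.29 and 2.35. The water-sprayed plants of occasions 2 and 3 were thus high and all 8 other arrays were low, with no overlap. On occasions 2 and 3 it fell by 6.51 on average on the log2 scale, or 90.9-fold, against values near the filter of 3.2, where low GCRMA values lie close together and a fold is only approximate. On occasion 1 the transcript was low in both sprays, so that the small change there compares low values with low values.

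The unnamed LesAffx.17191.1 had the same layout at a lower level. WW, WS, AW and AS read 5.24, 6.49, 2.14 and 2.29 on occasion 2 and 5.31, 5.25, 2.27 and 2.27 on occasion 3. On occasion 1 they read 2.29, 2.47, 2.23 and 2.04. Only the 4 water arrays of occasions 2 and 3 were above 3.2. The unnamed LesAffx.21605.1 also had values below 3.2 and varied without a clear layout. It read 3.39, 3.86, 2.80 and 2.38 on occasion 2, 6.42, 2.92, 2.10 and 2.52 on occasion 3 and 4.32, 2.59, 2.90 and 4.15 on occasion 1. Its fall on occasion 3 came mostly from the WW array, and on occasion 1 its changes without and with salt had opposite signs.

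Both sterol members fell on occasions 2 and 3, but from different starting points. A sterol 22-desaturase, LesAffx.22297.1.S1_at, is not a member. It changed by -0.79, -0.19 and -0.48 on occasions 1, 2 and 3, at a mean level of only 2.92. A list of 3 probe sets with sterol and isoprenoid precursor symbols was written after the members were known. Of these, 0 fell by 0.8 on both occasions 2 and 3. Sterol-C5(6)-desaturase (LesAffx.40726.1.S1_at) introduces a double bond into the sterol ring system. In WW, WS, AW and AS it read 11.20, 10.89, 8.92 and 8.62 on occasion 2 and 10.18, 9.73, 8.69 and 8.51 on occasion 3. The occasion 1 values were 8.83, 8.79, 9.06 and 8.64. Water plants of occasions 2 and 3 were high and did not overlap with any other array, while those of occasion 1 sat at the Alethea level. The change was -2.28 on occasion 2 and -1.36 on occasion 3, a mean of 3.53-fold.

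Obtusifoliol 14alpha-demethylase (Les.3094.3.S1_at) is the cytochrome P450 that removes a methyl group early in plant sterol synthesis. Values in WW, WS, AW and AS were 7.01, 7.47, 3.82 and 3.48 on occasion 2, and 6.27, 5.88, 6.07 and 4.00 on occasion 3. On occasion 1 they were 10.89, 10.46, 11.05 and 9.99. Here all 4 arrays of occasion 1 were higher than every other array, water plants included. On occasion 3 AW was level with the water plants and only AS was low. Another probe set with the same identifier stem, Les.3094.2.S1_at, had a mean of 12.1 and changed by -0.58, -0.40 and -0.19 on occasions 1, 2 and 3. It read 10.69 to 11.50 on occasion 1 and 12.32 to 13.09 on the others, the reverse of the member. The name of the member rests on 1 of its 2 annotations.

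**Figure D2:**
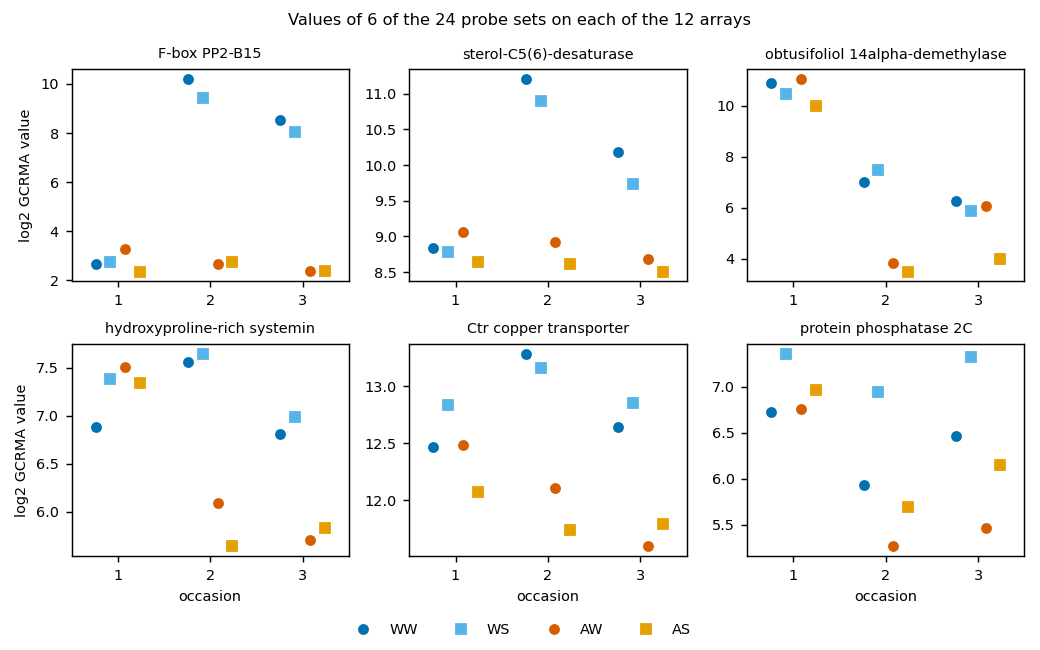
Deposited log2 GCRMA values (y axis) of 6 of the 24 probe sets on each occasion (x axis), with circles for arrays without salt and squares for arrays with salt, blue for water and orange for Alethea plants. The F-box PP2-B15 and sterol-C5(6)-desaturase panels show occasion 1 at the Alethea level, and the obtusifoliol 14alpha-demethylase panel shows occasion 1 above all other arrays.

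Transport gave 3 members. The Ctr copper transporter (LesAffx.59895.1.S1_at) belongs to a family that carries copper across membranes. It read 13.29, 13.16, 12.11 and 11.74 on occasion 2, 12.64, 12.85, 11.60 and 11.79 on occasion 3 and 12.46, 12.83, 12.49 and 12.08 on occasion 1, in the order WW, WS, AW and AS. Its WW mean of 12.8 was the highest of the set, and on occasion 1 AS was the lowest array. The yellow stripe-like transporter (Les.4844.1.S1_at) is of a family that moves metal-nicotianamine complexes. Its values in the same order were 10.93, 11.43, 10.00 and 10.29, then 10.72, 11.15, 9.39 and 10.27, and on occasion 1 9.73, 10.24, 9.73 and 9.51. Water plants of occasion 1 were already within the range of the Alethea plants of the other occasions.

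The third, an arsenical pump-driving ATPase (LesAffx.67914.1.S1_at), is named after a bacterial arsenite exporter subunit; plant relatives also insert tail-anchored proteins into membranes. Water plants of occasions 2 and 3 read 5.84 to 6.02, Alethea plants 4.51 to 5.08 and occasion 1 plants 5.20 to 5.84. With a change of -0.39 on occasion 1 it was just inside the band. Among 11 other probe sets with metal transport and binding symbols, a list written after the members were known, none fell by 0.8 on both occasions 2 and 3. The copper chaperones CCS (0.59, limma adjusted p = 0.0473) and CCH (-0.48, limma adjusted p = 0.0423) changed in opposite directions over all 3 occasions.

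Glutaredoxins and glutathione transferases both use glutathione, the former to reduce disulphides and the latter to conjugate electrophiles. The glutaredoxin member (LesAffx.68547.1.S1_at) read 11.71, 11.81, 10.92 and 10.61 in WW, WS, AW and AS on occasion 2, 11.13, 11.30, 10.00 and 10.66 on occasion 3 and 9.83, 10.36, 9.49 and 10.09 on occasion 1. The glutathione transferase member (Les.2955.2.S1_at) read 8.77, 8.34, 7.45 and 7.71, then 8.22, 7.99, 7.04 and 7.27, and on occasion 1 6.35, 6.82, 6.70 and 5.89. All occasion 1 arrays of the transferase lay below the Alethea plants of the other occasions, and those of the glutaredoxin overlapped with them from below. A further glutaredoxin, LesAffx.53857.1.S1_at, changed by -0.05, -2.50 and -0.39 on occasions 1, 2 and 3 and missed the rule on occasion 3. Another probe set of the same stem as the transferase, Les.2955.1.A1_at, changed by 0.31, 0.02 and -0.20, so the fall was not shared within the stem. Among the 11 redox probe sets matched by name, 2 were members. Limma called 2 of the 11 lower (4.6% of all) and 2 higher after Alethea. The 2 lower were the glutaredoxin member and a dehydroascorbate reductase, Les.3365.2.S1_at (-0.68), which is not a member. The 2 higher were both annotated as glutathione S-transferases, ctu1 (Les.123.1.S1_at, 1.92) and GST-T4 (Les.3735.1.S1_at, 0.90). Others so annotated on the list were not called. LesAffx.3002.1.S1_at changed by 0.00, 1.90 and 1.79 on occasions 1, 2 and 3, and LesAffx.56167.1.S1_at by 0.23, -0.48 and -0.40. The glutathione transferase member was not called. Over all 7732 probe sets limma called 635 in either direction.

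Glutamyl-tRNA reductase, the first committed enzyme of tetrapyrrole synthesis, was represented by LesAffx.66924.1.S1_at. It read 5.84, 6.31, 4.62 and 4.61 in WW, WS, AW and AS on occasion 2, 5.35, 5.26, 3.75 and 4.24 on occasion 3 and 5.46, 5.45, 5.66 and 4.67 on occasion 1. On occasion 1 AS alone came close to the Alethea plants of the other occasions. A second probe set for the enzyme, Les.4011.3.S1_at, fell most on occasions 1 and 2, with changes of -0.89, -1.18 and -0.25 on occasions 1, 2 and 3. Glutamate-1-semialdehyde aminomutase (LesAffx.35611.1.S1_at), the enzyme that follows it in the pathway, had changes of -0.60, -0.91 and -0.82, at a mean level of only 2.93. Another probe set of that enzyme, GSA-AT (Les.4018.1.S1_at), had a mean of 11.4 and changes of -0.04, 0.09 and 0.06. Limma called 3 of the 3 chlorophyll synthesis probe sets matched by name lower after Alethea (4.6% of all), 1 of them the member itself. It called 0 of 4, and 0 at an unadjusted p under 0.05, in a tetrapyrrole list written after the members were known, which holds GSA-AT, the protochlorophyllide reductase POR2 (-0.09, limma adjusted p = 0.393), HO2 (-0.10, limma adjusted p = 0.530) and AUREA (-0.23, limma adjusted p = 0.553). Names come mainly from the study's lists of changed probe sets (23 of 24 members and 557 of those kept), so such counts are not independent evidence. Of the 9 light-harvesting and photosystem probe sets matched, 0 were members.

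Hydroxyproline-rich systemin (LOC543883, Les.2121.1.A1_at) is the precursor of small glycopeptides that amplify wound defence in tomato, a response that runs through jasmonate. It read 7.56, 7.65, 6.09 and 5.64 in WW, WS, AW and AS on occasion 2, 6.81, 6.98, 5.70 and 5.82 on occasion 3 and 6.88, 7.38, 7.50 and 7.34 on occasion 1. The fall averaged 2.71-fold on occasions 2 and 3 with no overlap, and occasion 1 plants of both sprays were at the water level. It had the largest positive change of the members on occasion 1, 0.29. Among 16 defence probe sets matched by name it was the only member. Limma called 5 of the 16 higher after Alethea and 1 lower. The 1 lower was Les.3292.2.S1_at (-0.70), and the systemin member was not called. Over all 7732 probe sets limma called 635 in either direction, and 4.6% of all lower.

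Protein phosphatase 2C enzymes remove phosphate from serine and threonine, and some of them repress abscisic acid signalling; which kind LesAffx.41333.2.S1_at encodes is not annotated. It read 5.94, 6.94, 5.26 and 5.69 in WW, WS, AW and AS on occasion 2, 6.46, 7.32, 5.47 and 6.14 on occasion 3 and 6.72, 7.36, 6.76 and 6.97 on occasion 1. The salt array was the higher one in each of the 6 pairs with and without salt. A leucine-rich repeat protein (LesAffx.53474.1.S1_at), of a repeat class common in receptors, read 7.11 to 7.66 in the water plants of occasions 2 and 3, 6.25 to 6.59 in the Alethea plants and 6.16 to 6.94 on occasion 1.

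The pepsin A-like protease (LesAffx.4981.1.S1_at), an aspartic protease, read 7.13, 6.82, 5.82 and 4.92 in WW, WS, AW and AS on occasion 2, 7.80, 5.92, 6.61 and 5.49 on occasion 3 and 9.12, 9.12, 9.39 and 8.60 on occasion 1. As for the obtusifoliol demethylase, every occasion 1 array was higher than every other array. Its change of -0.80 on occasion 3 placed it just inside the limit. The translation initiation factor (LesAffx.59282.1.S1_at) was a weakly measured member, with 4.87 to 5.59 in water plants and 3.73 to 4.49 in Alethea plants of occasions 2 and 3 and 4.57 to 4.96 on occasion 1.

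Of the remaining named members, UPA18 (LesAffx.25416.1.S1_at), named in pepper for induction by a bacterial effector, read 5.25 to 6.47 in the water plants of occasions 2 and 3, and every other array read 3.38 to 4.10. The nodulin-like member (LesAffx.4116.1.S1_at) read 6.35 to 8.57 in these water plants, 5.24 to 6.33 in the Alethea plants and 5.70 to 6.59 on occasion 1. CT099 (LesAffx.26417.2.S1_at) read 10.57 to 12.02, 9.63 to 9.92 and 11.05 to 11.83 in the same order. The water and Alethea arrays of occasions 2 and 3 did not overlap in any of these. A sister probe set of CT099, LesAffx.26417.1.S1_at, changed by -0.52, -1.41 and -0.70 and missed the rule on occasions 1 and 3.

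Among the members given by identifier, Les.5617.1, with its single beta-galactosidase annotation, had the highest level, at 12.20 to 13.13 in water plants and 11.10 to 11.56 in Alethea plants of occasions 2 and 3, with 12.74 to 13.35 on occasion 1. LesAffx.59893.1 and LesAffx.59893.2 moved together, with changes of -0.26, -1.16 and -1.03 and of -0.27, -1.81 and -0.96 on occasions 1, 2 and 3. In both, every occasion 1 array was higher than every other array. Les.3036.2 read 7.95 to 9.63, 7.16 to 7.59 and 7.93 to 8.41 in water plants, Alethea plants and occasion 1 plants. LesAffx.68307.1 had the smallest mean change, with 5.40 to 6.63, 4.86 to 6.02 and 4.60 to 5.56.

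Just inside the limits, besides the protease and the ATPase, were LesAffx.68307.1 (-0.82 on occasions 2 and 3) and CT099 (-0.38 on occasion 1). Just outside were LesAffx.50170.1.S1_at with 0.41, -0.85 and -0.89 on occasions 1, 2 and 3 and LesAffx.59536.1.S1_at with -0.32, -0.85 and -0.78. A nucleobase:cation symporter (LesAffx.65568.1.S1_at) missed with -0.30, -0.78 and -0.84 and a chlorophyll a/b-binding protein (Les.3297.3.S1_at) with -0.13, -1.93 and -0.76. The set therefore has no gap around its limits. A total of 55 probe sets fell by 0.8 or more on occasions 2 and 3, of which 24 were members, 13 also fell by 0.8 or more on occasion 1 and 18 lay in neither class. Among the 13 were 2 pectinesterase probe sets, Les.218.2.S1_at (-1.20, -2.25 and -1.33) and Les.218.3.S1_at (-0.89, -1.19 and -0.90).

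A small change on occasion 1 arose in different ways, because the level on occasion 1 differed between members. A position was computed for each as the mean of the 4 occasion 1 arrays, scaled so that 0 is the mean of the Alethea plants and 1 that of the water plants of occasions 2 and 3; this measure was defined after the data were seen and is a description. The median was 0.59, with a range of -0.97 to 2.77. In 10 members the position was below 0.5, in 6 between 0.5 and 1 and in 8 at 1 or above. The low end held the glutathione transferase (-0.97), the glutaredoxin (-0.65), LesAffx.68307.1 (-0.28), the yellow stripe-like transporter (-0.18), UPA18 (-0.11), LesAffx.17191.1 (0.00), F-box PP2-B15 (0.03) and sterol-C5(6)-desaturase (0.08). In these the occasion 1 plants, water-sprayed ones included, read close to the Alethea plants of the other occasions or below them.

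At the other end stood the pepsin A-like protease (2.77), the obtusifoliol demethylase (2.70), LesAffx.59893.2 (1.78), LesAffx.59893.1 (1.68), Les.5617.1 (1.35), the protein phosphatase 2C (1.28), CT099 (1.07) and hydroxyproline-rich systemin (1.02). In these the occasion 1 plants, Alethea-sprayed ones included, read close to the water plants of the others or above them. Water plants were lower on occasion 1 in 17 of 24 members, Alethea plants were higher in 18, and both held in 11. The rule made at least 1 of these hold in every member, so the counts are a description. The absolute difference of the water level between occasion 1 and the others had a median of 0.95 in the members and 0.36 over all probe sets kept. The rule favours members with such a difference, so this contrast carries no test. Of the 99 probe sets raised by Alethea on occasions 2 and 3 but not on occasion 1, 30 (30.3%) had a position below 0.5, against 10 of 24 (41.7%) here, and their median was 0.96; this difference was not tested.

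**Figure D3:**
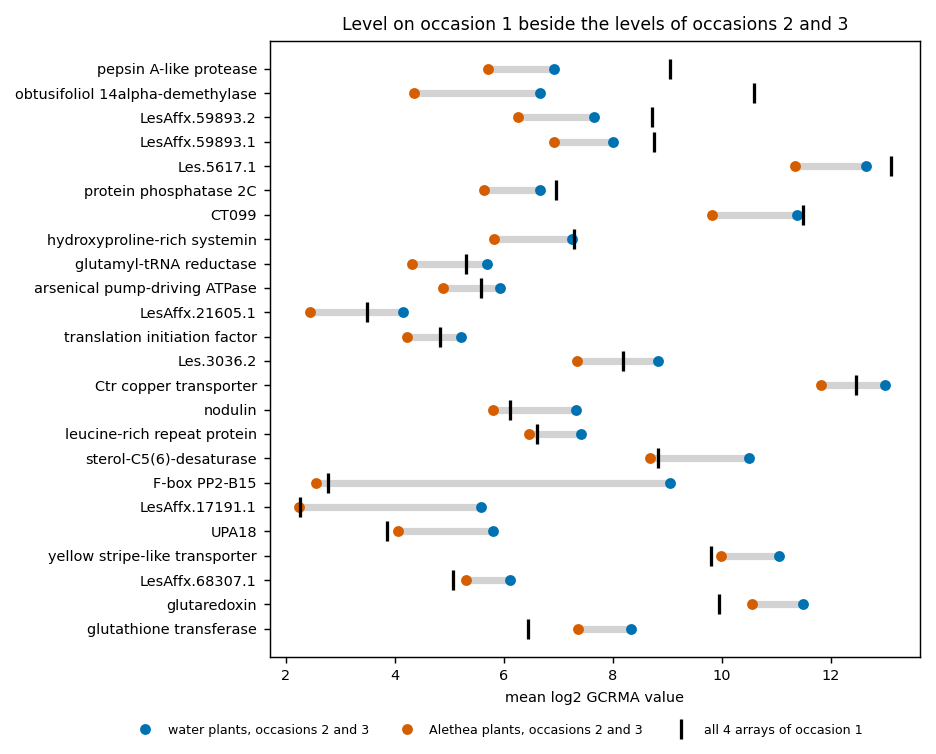
Mean log2 GCRMA value (x axis) of each of the 24 probe sets (y axis) in water plants (blue) and Alethea plants (orange) of occasions 2 and 3, with a black tick for the mean of the 4 arrays of occasion 1. In the 10 lowest rows the tick is nearer to the Alethea plants or beyond them, and in the 8 highest it is level with the water plants or beyond them.

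The rule used the mean of the 2 pairs of an occasion, so the difference between the pairs was free to vary. On occasion 1 the change with salt (AS − WS) was lower than the change without (AW − WW) in 22 of 24 members, against 55.9% of all probe sets. The median difference was -0.57 in the members and -0.07 over all, where the SD over probe sets was 0.58. AS was below WS in 23 of 24 members, with a median of -0.45, and AW was below WW in 7, with a median of 0.06. The exceptions were LesAffx.21605.1 (2.99) and the glutaredoxin (0.07). Glutathione transferase (-1.27), the nodulin-like member (-1.08), F-box PP2-B15 (-1.01) and glutamyl-tRNA reductase (-0.99) had the differences farthest below 0.

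The same difference was below 0 in 14 of 24 members on occasion 2 (51.4% of all probe sets, median -0.22) and in 8 on occasion 3 (44.9%, median 0.26). In the 13 probe sets lowered on all occasions it was below 0 on occasion 1 in 12, with a median of -1.03, and in the 99 raised except on occasion 1 it was below 0 in 28, with a median of 0.24. The pattern thus rests on the 4 arrays of occasion 1, one a group, and has no replicate. The actin 3′ minus 5′ difference moved with it: on occasion 1 it rose by 1.18 from WS to AS and by 0.09 from WW to AW, and AS of occasion 1 had the highest value of the 12 arrays, 1.72. On occasions 2 and 3 the rises with and without salt were 0.89 and 0.93, and 0.39 and 0.45. The part of RNA integrity in the members' values was not tested.

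**Figure D4:**
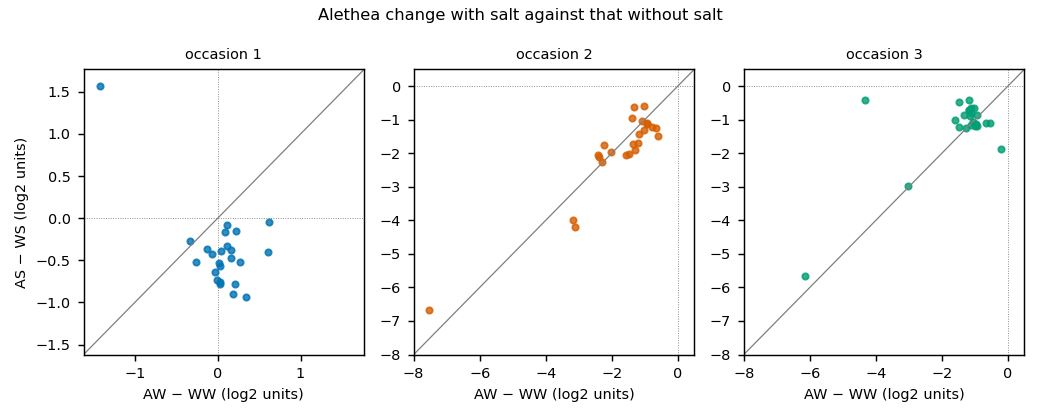
Alethea change with salt (AS − WS, y axis) against that without salt (AW − WW, x axis), in log2 units, for the 24 probe sets on each occasion, with the line of equal change; the panel of occasion 1 has its own scale. On occasion 1, 22 of the 24 points lie below the line, and on occasions 2 and 3 the points lie on both sides of it.

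Salt and its interaction with Alethea were estimated from contrasts that the rule's limits on the Alethea change did not use. Their standard errors are not free of the rule. The model has no term for an Alethea change that differs between occasions, so this difference enters the residual. The members were chosen for such a difference, which widens their errors and makes calls less likely. The counts of calls below are therefore a description and not independent of the rule. No member passed the test for salt: limma called 0 of 24 at an adjusted p under 0.05, where it called 5 of 7732 (0.0647%). At an unadjusted p under 0.05 there were 4 of 24 members and 14.1% of all probe sets. The salt change of the members had a median of -0.07 and that of all probe sets of 0.00, and it was below 0 in 16 of 24 (50.1% of all).

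The 4 were the protein phosphatase 2C, the pepsin A-like protease, the yellow stripe-like transporter and the leucine-rich repeat protein. Salt values were higher for the phosphatase by 0.63 (SE 0.16, 6 of 6 pairs, limma adjusted p = 0.183) and for the transporter by 0.40 (SE 0.17, 5 of 6 pairs, limma adjusted p = 0.330). They were lower for the protease, -0.83 (SE 0.29, 5 of 6 pairs, limma adjusted p = 0.275), and for the leucine-rich repeat protein, -0.40 (SE 0.16, 6 of 6 pairs, limma adjusted p = 0.324). Rank Product, which ranks changes within pairs, called the phosphatase higher with salt (false discovery rate 0.0177; 1.47% of all called higher) and the protease lower (0.0014; 1.45% of all called lower). It also called lower the obtusifoliol demethylase (-0.64, SE 0.53) and LesAffx.21605.1 (-0.59, SE 0.55), the latter with a single pair of -3.50 on occasion 3. LesAffx.21605.1 passed the filter of 3.2 only through WW, with means of 4.71 in WW and 3.12 in WS. Its lower salt value is thus partly set by the filter.

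Another phosphatase 2C annotated as an ABI2 homologue, a repressor of abscisic acid signalling in Arabidopsis, had a salt change of 0.79 (SE 0.17, limma adjusted p = 0.132) on Les.3124.1.S1_at. LesAffx.10444.1.S1_at, also annotated as a phosphatase 2C, changed with salt by 0.59 (SE 0.07, limma adjusted p = 0.0498) and was one of the 5 called; its Alethea change was -0.51. The member's salt change of 0.63 lay between these in size. The Alethea change of Les.3124.1.S1_at was -0.78, 0.11 and -0.35 on occasions 1, 2 and 3, and -0.34 over all 3.

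The interaction, (AS − AW) − (WS − WW), was called in 0 of 24 members and in 0% of all probe sets by limma. At an unadjusted p under 0.05 it held in 0 members and in 2.19% of all. Its standard error in the members was 0.30 to 2.17. Besides the limit of 3 arrays a group, these errors hold the difference between occasions that chose the members. For F-box PP2-B15 the standard error was 2.17, while its differences between the pairs were -1.01, 0.88 and 0.50 on occasions 1, 2 and 3. The estimates had a median of -0.18 (-0.01 over all probe sets), and 18 of 24 were below 0 and 6 above (48.6% of all above). The differences between the pairs, of which each estimate is the mean, were below 0 in 22 members on occasion 1. They were below 0 in 14 on occasion 2 and in 8 on occasion 3. Within water plants limma called salt changes in 0 of 24 members (0.0388% of all) and within Alethea plants in 0 (0% of all). At an unadjusted p under 0.05 there were 1 member in water plants (10.6% of all) and 0 in Alethea plants (5.01% of all). The largest in water plants was that of LesAffx.21605.1, -1.59 (SE 0.77), and the largest in Alethea plants that of the obtusifoliol demethylase, -1.16 (SE 0.76). The value of LesAffx.21605.1 is partly set by the filter, which this member passed only through WW.

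**Figure D5:**
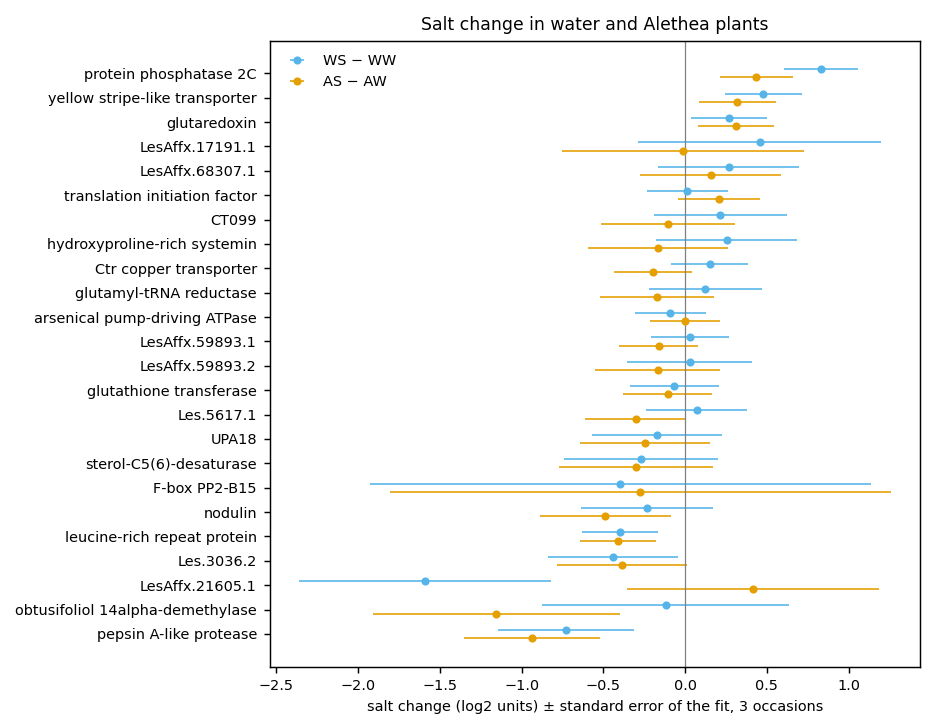
Salt change in log2 units (x axis) of each of the 24 probe sets (y axis) in water plants (WS − WW, blue) and Alethea plants (AS − AW, orange), with bars for the standard error of the limma fit over 3 occasions. The protein phosphatase 2C is highest, at 0.83 and 0.44, and F-box PP2-B15 has the widest bars, 1.53 to each side.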

How the data were processed

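RNA from tomato leaves was hybridised to 12 Affymetrix arrays, 3 for each of WW, WS, AW and AS. The authors deposited GCRMA log2 values, normalised across arrays; the version of GCRMA is not given in the sources used here, and scanner signals were not used. Array medians were 7.66 to 7.76, and precision is limited by 3 arrays a group. Probe sets with a mean above 3.2 in at least 1 group were kept and the array's controls left out, which gave 7732. The model was fitted with limma 3.58.1, run under R 4.3.3 (4 group means, occasion as a block, residual degrees of freedom 6, prior 2.65), and p-values were adjusted by Benjamini-Hochberg over all of them. Rank Product was run in Python 3.11.15 on 6 within-occasion pairs with 1000 permutations and a false discovery rate of 0.05. Both were tested on simulated data. The study describes 3 separate occasions and paired comparisons, and arrays of equal replicate number were taken as 1 occasion. Deviations from the group means correlated at 0.44 to 0.87 in the 18 pairs of arrays within an occasion. Between arrays of different occasions and groups they correlated at -0.79 to 0.63, so the ranges overlap. Members and lists were chosen with earlier results of these data known. Named were all members with a described protein or symbol, those with the largest salt changes, the highest and lowest levels and those near the limits, and other probe sets of the same gene; further genes were chosen after their values were seen. Names come from the array's annotation (909 probe sets with 1 symbol) and the study's additional files. Alternatives were array centring, no filter, no block, another prior, each occasion left out, Rank Product and other limits of the rule.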

Additional observations from a re-analysis of the deposited data

How the results depend on the processing

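The set depends on its limits. There were 43 members with a fall of 0.7 in place of 0.8, and 17 to 30 under the other limits and scalings tried. With the rule applied to 1 pair only, an alternative chosen after seeing the data, 45 probe sets passed without salt (16 of the 24 among them) and 14 with salt (5 of the 24). The count of probe sets called for salt was 5, and 3 with centred arrays, 0 with no replicate block, 35 with a trend and robust prior, 226 by Rank Product and 0 to 1 with an occasion left out. Members called for salt numbered 0 in all limma fits (0 to 5 at an unadjusted p under 0.05) and 4 by Rank Product. Calls in water plants went from 3 to 0 with no filter, 0 with no replicate block, 5 with the other prior and 0 with any occasion left out. For Alethea, 635 calls became 0 with no replicate block, 386 by Rank Product and 0 to 488 with an occasion left out, 0 without occasion 2 or occasion 3. The rise of the actin difference was 0.53 to 0.77 and of the GAPDH difference 0.14 to 0.18 with an occasion left out; 4 pairs cannot give a p below 0.125. Of the other values recomputed, none changed sign or its side of the threshold. Low GCRMA values limit the 3 members with a value below 3.2.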
